A study of Mus musculus with 24 samples.

Results

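The 10 genes described here are the EGF receptor family and its ligands in mouse liver after an overdose of acetaminophen. They comprise 4 receptors (Egfr, Erbb2, Erbb3 and Erbb4) and 6 ligands (Areg, Hbegf, Tgfa, Egf, Btc and Ereg), chosen by symbol from the 50657 gene symbols counted in each library. Livers came from individual mice lacking Egfr in hepatocytes (KO) and from wild-type mice (WT), taken at 0, 1, 3 and 12 h in a study of a 500 mg/kg dose. Each genotype and time had 3 mice, which gave 24 libraries. The labels do not say what the 0 h mice were given, so that the drug cannot be told apart from handling or time of day in any change from 0 h. The sources used here name neither the Cre driver, nor the deleted exons, nor the age and sex of the mice, and the other harvest times in the series text are not analysed here.

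The receptors are membrane tyrosine kinases that pair when a ligand binds and signal through RAS and ERK and through PI3K and AKT. EGFR binds EGF, TGF-alpha, amphiregulin (Areg), HB-EGF (Hbegf), betacellulin (Btc) and epiregulin (Ereg). ERBB2 binds no known ligand and acts as a partner, and ERBB3 binds neuregulins but has little kinase activity of its own. Most ligands are made as membrane precursors that the protease ADAM17 or its relatives release, and in liver the receptor is known for its part in hepatocyte proliferation after injury.

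Areg, which had almost no reads before 12 h and rose in both genotypes by then, is shown first with the 250 bases before its start, from RefSeq on build GRCm38.p6, chr5:91139349-91139598, plus strand. Capitals mark the cAMP response element TGACGTCA and the TATA box TATAAA, whose first bases lie at -61 and -31 from the start.
Areg: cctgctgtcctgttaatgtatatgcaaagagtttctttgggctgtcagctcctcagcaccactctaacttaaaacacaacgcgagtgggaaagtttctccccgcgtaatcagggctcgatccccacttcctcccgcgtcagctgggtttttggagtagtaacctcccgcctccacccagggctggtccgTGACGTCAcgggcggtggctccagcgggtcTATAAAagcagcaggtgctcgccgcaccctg
The letters TGACGTCA were present in 1.79% of the 32851 promoter windows of the table and TATAAA in 13.6%, searched on both strands, each window reaching from 250 bases before to 50 after a start. Of the 10 genes 7 had a window in that table, and none of the other 6 held either motif, the AP-1 motif TGANTCA (7.81% of all windows) or the EGR motif GCGNGGGCG (5.55%). A match describes these letters and not a bound site, and the counts themselves were made on another build, mm39.

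Libraries held 3.54 to 7.58 M gene counts, so that 1 read was worth 0.124 to 0.349 CPM (counts per M of library size, scaled by TMM), and a count of 0 allows up to 0.373 to 1.05 CPM in a single library (3 counts). Such limits cover counting error only. Hepatocyte markers (6 genes) summed to 29364 to 48172 CPM over all libraries. The library labelled KO 1 h replicate 1 went against its label for Egfr, and WT 0 h and WT 3 h each held a mouse that stood apart. The chi-square per degree of freedom between libraries was 15.7 and 16.7 for WT 0 h replicate 2 against the other two, which gave 4.59 between them, and 16.0 and 19.7 for WT 3 h replicate 1 against replicates 2 and 3, which gave 3.78 between them. Calls that were gained or lost without one of these libraries are given beside the result. A gene was called where edgeR's quasi-likelihood test, fitted to 13204 genes with Benjamini-Hochberg adjustment, gave an adjusted p under 0.05. Of the 10 genes 8 could be tested. Erbb2 and Ereg were too low for the filter, and Areg and Hbegf were too low to judge in every comparison without a 12 h group (under 10 counts in both groups). Areg and Hbegf passed the filter only through their 12 h libraries, where they were high.

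Egfr, the receptor deleted in hepatocytes, was lower on average in the KO livers at every time but kept a sizeable level there. At 0 h its level was 59.5, 78.0 and 110 CPM in KO livers, against 385, 334 and 461 CPM in WT livers. At 1 h it was 335, 136 and 155 CPM in KO livers and 332, 407 and 400 CPM in WT livers. The groups stood clear of each other at 0 h, whereas the library labelled KO 1 h replicate 1 lay above the lowest WT library. At 3 h the values were 82.3, 184 and 271 CPM in KO livers and 303, 633 and 455 CPM in WT livers. At 12 h they were 65.9, 117 and 43.0 CPM in KO livers and 263, 205 and 203 CPM in WT livers. At both of these times every KO library lay below every WT library. Over all tested genes KO and WT libraries did not overlap for 14.4% at 0 h, 15.5% at 3 h and 14.5% at 12 h.

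The KO mean of Egfr was 21.0%, 54.9%, 38.6% and 33.7% of the WT mean at 0, 1, 3 and 12 h. It was 38.3% at 1 h without the library labelled KO 1 h replicate 1 and 19.5% at 0 h without WT 0 h replicate 2. At 3 h it was 32.9% without WT 3 h replicate 1, and 59.1% where that library alone stood for WT. Over the 4 times the mean difference of log2(CPM + 1) was -1.59, with KO at 6.85 and WT at 8.44 (exact permutation test of the genotype labels within times, two-sided, p = 2.5e-05, 4 of 160000 arrangements as large). In bulk tissue fewer cells with the transcript and less transcript per cell cannot be told apart. Which exons and cell types gave the reads counted in KO livers was not tested.

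In the fit across all genes the log2 fold change of Egfr, KO over WT, was -2.25 at 0 h (SE 0.45, adjusted p = 0.0946) and -0.87 at 1 h (SE 0.43, adjusted p = 0.54). It was -1.37 at 3 h (SE 0.44, adjusted p = 0.216) and -1.55 at 12 h (SE 0.46, adjusted p = 0.243). None passed, by edgeR's quasi-likelihood test. By p-value Egfr ranked 18, 1511, 384 and 191 of the 13204 genes at 0, 1, 3 and 12 h. Without the library labelled KO 1 h replicate 1 the value at 1 h was -1.38 (adjusted p = 0.234), and without WT 3 h replicate 1 that at 3 h was -1.60 (0.101). With WT 3 h replicate 1 as the only WT library at 3 h it was -0.75 (SE 0.58, adjusted p = 1), assuming that this library varies like those of the other groups. Averaged over the 4 times Egfr ranked 1 of 13204 with a log2 fold change of -1.51 (SE 0.22, edgeR adjusted p = 0.0504). It passed in that average without the library labelled KO 1 h replicate 1 (-1.64, adjusted p = 0.0148) or without any of KO 0 h replicate 3, WT 3 h replicate 1, KO 3 h replicate 1 or 3 and KO 12 h replicate 2 (0.00596 to 0.0493). Without WT 0 h replicate 2 it was -1.54 (0.0973), and with WT 3 h replicate 1 as the only WT library at 3 h it was -1.36 (0.245), under the same assumption.

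Between times, all 3 KO libraries at 1 h lay above all 3 at 0 h, with a log2 fold change of 1.33 (SE 0.44, edgeR adjusted p = 0.0782), and of 0.83 (0.287) without the library labelled KO 1 h replicate 1. KO libraries at 1 and 0 h did not overlap for 26% of all tested genes. WT livers showed -0.05 (SE 0.43, adjusted p = 0.972) in the same interval. The change in KO livers exceeded that in WT livers by 1.38 (SE 0.61, adjusted p = 0.417), and by 0.87 (SE 0.59, 0.635) without the library labelled KO 1 h replicate 1, so the genotypes were not shown to differ in it. At 12 h against 0 h Egfr was at -0.12 (SE 0.45, 0.874) in KO and -0.82 (SE 0.43, 0.19) in WT livers, and neither was called. All 3 WT libraries at 12 h lay below all 3 at 0 h, while the KO ranges overlapped. WT libraries at 12 and 0 h did not overlap for 39.9% of all tested genes. A fit to only these WT groups did call Egfr lower.

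**Figure D1:**
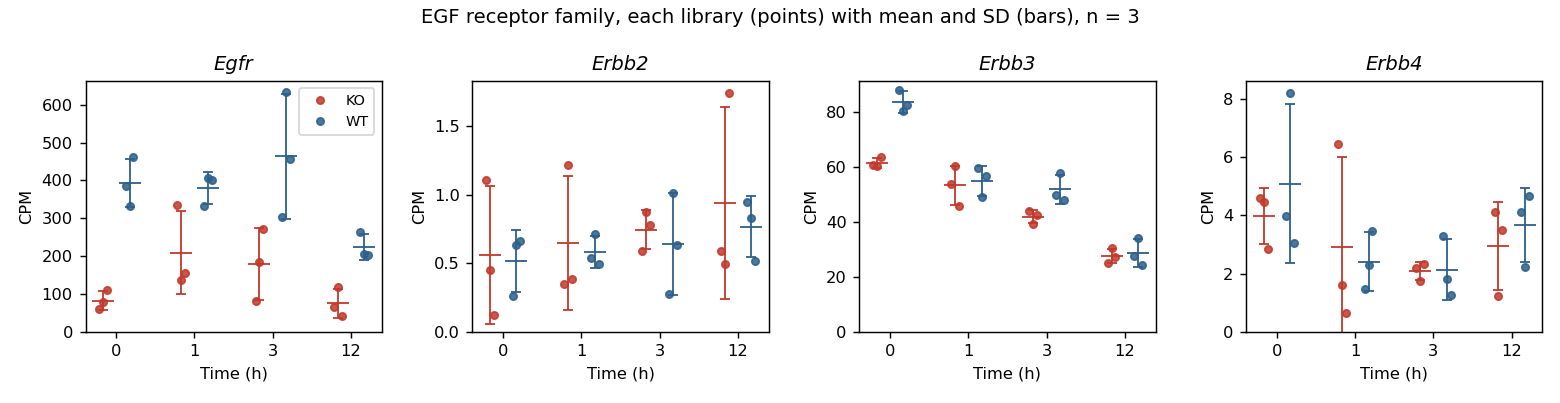
Level of the 4 receptors in CPM (y axis, from 0) at 0, 1, 3 and 12 h (x axis), KO in red left of WT in blue. Each point is a library, bars are the mean and SD of 3 mice (cut off at 0 for Erbb4 at KO 1 h). Egfr in KO libraries lies mostly below WT, 1 KO library at 1 h reaches 335 CPM, and Erbb3 is lowest at 12 h in both genotypes.

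Egfros is an antisense locus that lies inside an intron of Egfr in GENCODE M21 (GRCm38), with 0 Egfr exons within its span. Only 0.238% of its strand-assigned counts lay on its own strand, so nearly all its reads run in the direction of Egfr. At 0 h it averaged 55.2 ± 26.6 CPM in KO livers and 41.8 ± 13.2 CPM in WT livers (SD, n = 3 each), and the groups overlapped. Its KO mean was 132%, 53.7%, 88.3% and 116% of the WT mean at 0, 1, 3 and 12 h, and no genotype difference was called (edgeR adjusted p 0.611 to 0.954). From 0 h it fell in KO livers by 2.42 at 1 h (adjusted p = 0.00294), by 2.26 at 3 h (0.00458) and by 1.56 at 12 h (0.0179) on the log2 scale. In WT livers it fell by 1.63 at 3 h (0.0243) and by 1.40 at 12 h (0.0417), with -1.14 (0.141) at 1 h. The WT calls of Egfros were lost without WT 0 h replicate 2 (0.0876 at 3 h and 0.126 at 12 h), and that at 3 h also without WT 3 h replicate 1 (0.0854) or without replicates 2 and 3 (0.187). Pearson's r between the log2 levels of Egfr and Egfros was -0.08 over the 24 libraries, which share genotype and time, as a description.

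Erbb3, the neuregulin receptor, fell in both genotypes and was lowest at 12 h, at 0.451 of its 0 h level in KO and 0.343 in WT livers. At 0 h it had 60.6, 60.3 and 63.5 CPM in KO livers, against 88.0, 80.3 and 82.5 CPM in WT livers. At 1 h it had 53.7, 60.3 and 45.8 CPM in KO and 59.5, 48.9 and 56.7 CPM in WT livers. The genotypes stood apart at 0 h, as they did for 14.4% of all tested genes, and overlapped at 1 h. At 3 h the values were 43.9, 39.2 and 42.6 CPM in KO and 49.7, 57.9 and 48.1 CPM in WT livers. At 12 h they were 25.2, 30.5 and 27.2 CPM in KO and 27.5, 34.2 and 24.4 CPM in WT livers. The 12 h libraries of both genotypes lay below all earlier ones and overlapped with each other. Between 12 and 0 h alone, a weaker condition, 41.1% of all tested genes did not overlap in KO and 39.9% in WT livers.

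In WT livers Erbb3 fell by 0.60 at 1 h (SE 0.12, edgeR adjusted p = 9.17e-04) and by 0.69 at 3 h (SE 0.12, 1.45e-04) on the log2 scale. By 12 h it fell by 1.54 (SE 0.13, 9.69e-11). In KO livers it fell by 0.55 at 3 h (SE 0.12, 0.00293) and by 1.15 at 12 h (SE 0.13, 4.72e-08), and the change at 1 h was -0.21 (SE 0.12, 0.326). The 3 responses of a genotype share its 0 h mice. The step from 3 to 12 h uses none of them, and there Erbb3 fell by 0.60 in KO (SE 0.13, 0.00209) and by 0.85 in WT livers (SE 0.13, 2.08e-05). KO over WT was -0.44 at 0 h (SE 0.12, unadjusted p = 6.64e-04, adjusted p = 0.191), followed by -0.05 (0.949), -0.30 (0.331) and -0.05 (0.944) at 1, 3 and 12 h, none called. The KO response exceeded the WT response by 0.40 at 1 h (SE 0.17, adjusted p = 0.359), 0.14 at 3 h (0.882) and 0.40 at 12 h (SE 0.18, 0.463), and no difference between genotypes passed. In WT livers at 1 h 4 of 6 Kupffer cell markers were called lower too (2 of 6 without WT 0 h replicate 2), where 8.09% of all genes were called. Their sum was 39.2 to 47.8 CPM at 1 h and 54.1 to 114 CPM at 0 h. In KO livers at 1 h 0 of the 6 were called, where 7.58% of all genes were. The part of cell composition in the change of Erbb3 was not tested.

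Erbb4, a receptor for neuregulins, betacellulin and HB-EGF, was low and variable. It held 5 to 39 counts per library, or 0.638 to 8.20 CPM, and no change was called. The highest KO value at 1 h was 6.45 CPM in the library labelled KO 1 h replicate 1, beside 1.62 and 0.638 CPM in the other KO mice. Without that library Erbb4 had a log2 fold change of -1.78 in KO livers at 1 h against 0 h (edgeR adjusted p = 0.0278). With it the log2 fold change was -0.55 (SE 0.56, edgeR adjusted p = 0.652). WT livers had -1.03 at 1 h (SE 0.56, 0.329) and -1.14 at 3 h (SE 0.58, 0.218).

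Erbb2, the partner receptor, had 88 reads in all 24 libraries together, 1 to 9 in each. Its mean was 0.941 CPM in KO and 0.767 CPM in WT livers at 12 h, and 0.56 CPM in KO and 0.518 CPM in WT livers at 0 h. The ratio of 12 h to 0 h from summed counts was 1.67 in KO livers (95% exact interval 0.61 to 4.42) and 1.51 in WT livers (0.517 to 4.25). Erbb2 is therefore too low to judge at this depth, and 80.6% of its strand-assigned counts lay on its own strand.

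Areg, a low-affinity ligand of EGFR made under stress and repair, was close to absent through 3 h and present in every 12 h library. KO livers had 0 counts in all libraries at 0 and 1 h and 2, 0 and 0 counts at 3 h. WT livers had 1, 0 and 1 counts at 0 h, 0 in all libraries at 1 h, and 1, 0 and 1 counts at 3 h. At 12 h there were 21, 10 and 9 counts in KO livers (6.16, 2.46 and 3.14 CPM) and 12, 18 and 9 counts in WT livers (2.33 to 5.00 CPM). No 12 h library overlapped with an earlier one, and the genotypes overlapped at 12 h. Of all tested genes 41.1% in KO and 39.9% in WT livers did not overlap between 12 and 0 h, a weaker condition than against all earlier times.

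In KO livers the summed Areg level at 12 h was 27.2 times the limit of the 0 h sum, taking 3 counts over the group as the limit of its 0 (0.142 CPM). This ratio leaves out the counting error of the 12 h sum, unlike the exact interval for WT livers. In WT livers the ratio was 36.8, with a 95% exact counting interval of 9.52 to 314 because the 0 h sum was 2 reads. Areg rose at 12 h in both genotypes (edgeR adjusted p = 2.95e-06 in KO and 2.33e-05 in WT), and its fitted log2 fold changes of 7.51 and 4.94 depend on the prior count and are not bounds. Against 3 h it rose as well, with adjusted p = 7.01e-05 in KO and 6.79e-05 in WT livers. Areg passed the low-count filter only through its 12 h libraries, so these p-values belong to a gene kept for its high 12 h counts. They add no support apart from the counts themselves. KO over WT at 12 h was 0.08 with a 95% interval of -0.85 to 1.00 (adjusted p = 0.978).

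Hbegf, a ligand of EGFR and ERBB4 released from the membrane by proteases, had the same low start. Through 3 h it reached no more than 0.676 CPM in a KO library and 0.67 CPM in a WT library. At 12 h it had 5.86, 2.70 and 3.84 CPM in KO livers (20, 11 and 11 counts) and 7.28, 5.56 and 2.59 CPM in WT livers (23, 20 and 10 counts). Every 12 h library stood above every earlier one. The shares of all tested genes given for Areg compare 12 h with 0 h alone, a weaker condition. On the log2 scale Hbegf rose at 12 h against 0 h by 3.36 in KO livers (SE 0.53, edgeR adjusted p = 1.16e-05). In WT livers it rose by 4.53 (SE 0.57, 3.64e-07). The 0 h sums were 8 reads in KO and 4 reads in WT livers, so these changes and their difference rest on few reads. From summed counts, the 95% exact counting interval of the 12 h to 0 h ratio was 4.96 to 26.4 in KO livers. It was 9.21 to 95.1 in WT livers. KO over WT at 12 h was -0.30 (SE 0.39, 95% interval -1.08 to 0.47, adjusted p = 0.85), and the responses differed by -1.17 (SE 0.92, 0.719), not called. Like Areg, Hbegf passed the low-count filter only through its 12 h libraries, and its p-values at 12 h against 0 h carry the same limit.

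Some markers of several cell types were higher at 12 h, when Areg and Hbegf rose. Over all genes 15.1% were called higher in KO and 13.4% in WT livers. Of 6 hepatocyte markers Alb was called higher and Cyp2e1 lower in both genotypes, and Ttr and Apoa1 were called higher in WT livers alone. Of 6 Kupffer cell markers 0 were called higher, and Marco was called lower in WT livers. The 5 cholangiocyte markers summed to 33.9 to 126 CPM in KO and 109 to 221 CPM in WT livers at 12 h, and to 18.8 to 20.6 CPM in KO and 19.1 to 24.6 CPM in WT livers at 0 h. Of these markers 2 could be tested and Sox9 alone rose, by 2.53 in KO (edgeR adjusted p = 2.01e-04) and 3.78 in WT livers (3.60e-06), while the defining Krt19, Krt7 and Epcam held 98, 39 and 126 counts over all 24 libraries. The 5 neutrophil markers summed to 3.44 to 3.84 CPM in KO and 2.59 to 9.45 CPM in WT livers at 12 h, and to 0.448 to 0.633 CPM in KO and 0.387 to 1.68 CPM in WT livers at 0 h, without overlap between the times, and 0 of them passed the filter for the test. Of 6 sinusoidal endothelial markers Cdh5 rose by 0.73 in KO (0.00269) and 0.52 in WT (0.0371) and Pecam1 by 0.63 in KO (0.00792) and 0.53 in WT livers (0.0298). Of 5 stellate cell markers Dcn rose by 0.68 in KO (3.99e-04) and 0.38 in WT (0.0421), and Colec11 by 0.64 in WT livers (0.00719). Without WT 0 h replicate 2 only Pecam1 and Colec11 of these 4 were called in WT livers. The endothelial sum was 154 to 204 CPM in KO and 156 to 196 CPM in WT livers at 12 h, and 138 to 174 CPM in KO and 142 to 169 CPM in WT livers at 0 h. The stellate sum was 164 to 190 CPM in KO and 179 to 232 CPM in WT livers at 12 h, and 122 to 167 CPM in KO and 140 to 185 CPM in WT livers at 0 h. Both sums overlapped between the times in both genotypes. The part of other cell types in the rises of Areg and Hbegf was not tested.

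**Figure D2:**
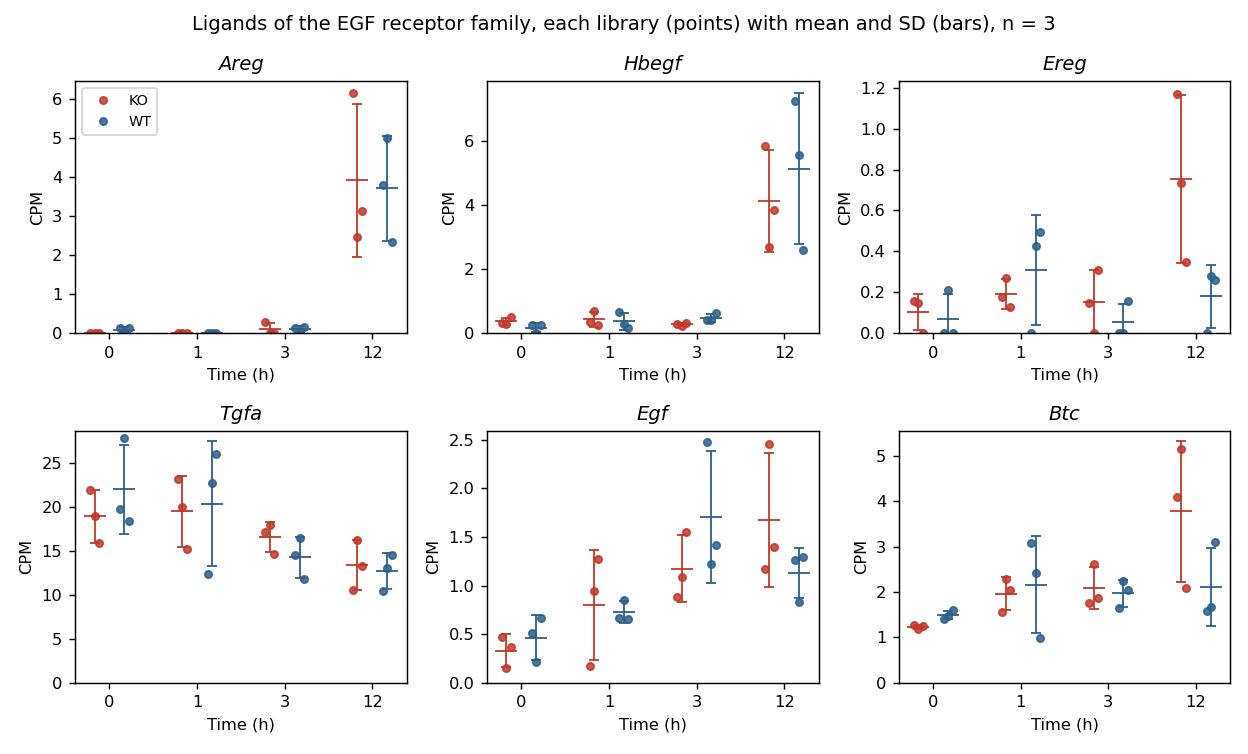
Level of the 6 ligands in CPM (y axes, each from 0 on its own scale) at 0, 1, 3 and 12 h (x axis), KO in red left of WT in blue. Each point is a library, bars are the mean and SD of 3 mice. Areg and Hbegf stand at or near 0 through 3 h and at 2.33 to 7.28 CPM at 12 h in both genotypes. The means of Tgfa are lower at 12 h than at 0 h, with overlapping ranges in KO livers.

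Tgfa was the most abundant ligand at 0 h per length of transcript and fell in WT livers by 12 h. It had 21.8, 19.0 and 15.9 CPM in KO livers at 0 h, against 19.7, 27.7 and 18.4 CPM in WT livers. At 1 h it had 15.2 to 23.2 CPM in KO and 12.3 to 25.9 CPM in WT livers, and at 3 h 14.6 to 17.9 CPM in KO and 11.8 to 16.5 CPM in WT livers. The genotypes overlapped at each of these times. At 12 h it had 10.6, 16.2 and 13.3 CPM in KO livers and 10.4, 13.1 and 14.5 CPM in WT livers. The 12 h range lay below the 0 h range in WT livers, as ranges stood apart for 39.9% of all tested genes, and overlapped with it in KO livers. Tgfa fell in WT livers by 0.76 at 12 h (SE 0.24, edgeR adjusted p = 0.022), and this call was lost without WT 0 h replicate 2 (0.102), WT 12 h replicate 1 (0.109) or WT 12 h replicate 2 (0.0608). At 12 h KO livers had -0.48 (SE 0.24, 0.142), and the responses differed by 0.28 (SE 0.35, 0.842), not called.

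Egf itself was near the limit of the libraries, at 1 to 18 counts. Its mean was 0.332 ± 0.167 CPM in KO and 0.464 ± 0.232 CPM in WT livers at 0 h, 1.18 ± 0.345 CPM in KO and 1.71 ± 0.676 CPM in WT at 3 h, and 1.68 ± 0.686 CPM in KO and 1.13 ± 0.259 CPM in WT at 12 h (SD, n = 3 each). Egf rose in KO livers at 12 h by 2.30 (SE 0.62, edgeR adjusted p = 0.00535), which was lost without KO 12 h replicate 2 (0.0766). It rose in WT livers at 3 h by 1.78 (SE 0.53, 0.0204), which was lost without WT 0 h replicate 1 (0.0653), WT 0 h replicate 2 (0.0729) or WT 3 h replicate 1 (0.162), which was the highest of its group. KO livers at 3 h had 1.76 (SE 0.61, 0.0621) and WT livers at 12 h had 1.16 (SE 0.64, 0.192). In the GENCODE M21 models antisense genes overlap Egf, 87.4% of its strand-assigned counts lay on its own strand, and counts on that strand alone were too few for the filter.

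Btc, a ligand of EGFR and ERBB4, rose at 12 h in KO livers. It had 1.27, 1.19 and 1.24 CPM at KO 0 h and 1.42, 1.47 and 1.60 CPM at WT 0 h. At 1 h it had 1.57 to 2.30 CPM in KO and 0.992 to 3.08 CPM in WT livers, and at 3 h 1.77 to 2.61 CPM in KO and 1.65 to 2.23 CPM in WT livers. The genotypes overlapped at 1 and 3 h. At 12 h it had 4.10, 5.16 and 2.10 CPM in KO livers (14, 21 and 6 counts) and 1.58, 1.67 and 3.11 CPM in WT livers (5, 6 and 12 counts). All KO libraries at 12 h lay above those at 0 h, while the WT ranges overlapped. Of all tested genes 41.1% in KO and 39.9% in WT livers did not overlap between these times. The change was 1.65 in KO (SE 0.38, edgeR adjusted p = 0.00147) and 0.52 in WT livers (SE 0.42, 0.397). The difference of the responses was 1.13 (SE 0.57, unadjusted p = 0.0569, adjusted p = 0.508), and KO over WT at 12 h was 0.85 (SE 0.40, adjusted p = 0.456), so the genotypes were not shown to differ.

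Ereg was too low to judge. It had 27 counts in all and 0 in 8 libraries. At 12 h it had 4, 3 and 1 counts in KO livers and 0, 1 and 1 counts in WT livers. The ratio of summed counts at 12 h to 0 h was 8.15 in KO (95% exact interval 1.63 to 78.8) and 3.77 in WT livers (0.196 to 223), which covers counting error within these libraries and not the spread between mice.

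Counted over the 10 genes, none was called between KO and WT at any time by edgeR's quasi-likelihood test. Over all 13204 genes 0.0151% were called at 0 h, 0.492% at 1 h, 0.977% at 3 h, 0.053% at 12 h and 0% in the average over times. At an unadjusted p under 0.05 there were 2 of the 10 at 0 h, 0 at 1 h, 2 at 3 h, 2 at 12 h and 2 in the average, where all genes gave 8.12%, 9.76%, 10.4%, 10.3% and 7.04%. Egfr was among them each time there were any, beside Erbb3 at 0 h, at 3 h and in the average and Btc at 12 h. DESeq2 called Egfr at 0 h (adjusted p = 4.68e-04) and in the average (3.93e-08), and 0 of the 10 at 1, 3 and 12 h. The differences of response gave 0 calls at 1, 3 and 12 h against 0.454%, 0.151% and 0.0227% of all genes called. At an unadjusted p under 0.05 there were 2, 0 and 1 of the 10, where all genes gave 10.9%, 8.67% and 10.2%, and DESeq2 called 0 at each time. A p that misses the threshold does not show that the genotypes were alike.

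**Figure D3:**
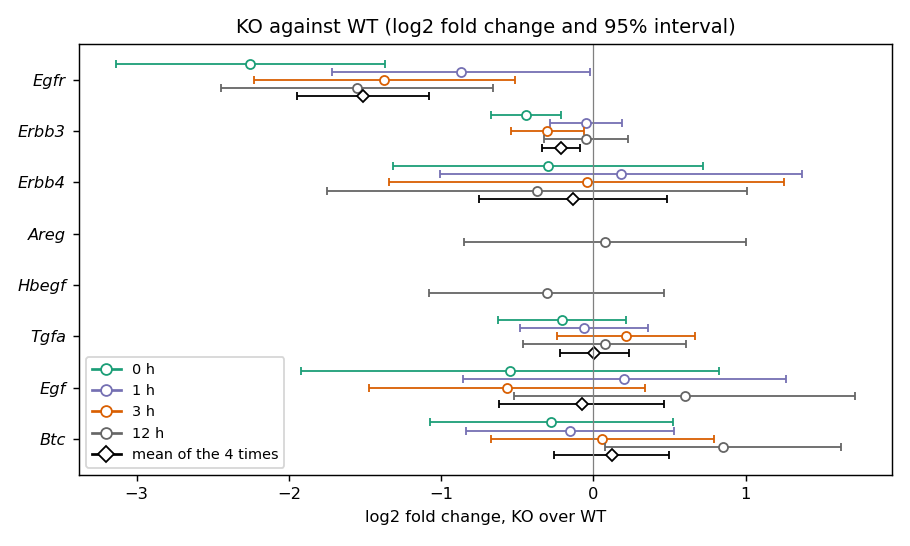
Log2 fold change of KO over WT (x axis) for the tested genes (y axis) at each time and averaged over the 4 times. Bars are the 95% interval by normal approximation, which is narrower than the test implies. Areg and Hbegf are drawn at 12 h only, and open symbols mark that none passed the adjusted threshold. The Egfr values lie between -2.25 and -0.87.

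Against 0 h, 0 of the 10 genes were called in KO livers at 1 h (7.58% of all genes called), 1 at 3 h (9.95%) and 5 at 12 h (28.8%). In WT livers 1 was called at 1 h (8.09%), 2 at 3 h (14.1%) and 4 at 12 h (25.6%). In KO livers at 1 h there were 2 at an unadjusted p under 0.05 (21.3% of all genes), and DESeq2 called Egfr there (adjusted p = 0.0323). At 12 h the KO calls were Areg, Hbegf, Egf and Btc higher (15.1% of all genes) and Erbb3 lower (13.7%). The WT calls were Areg and Hbegf higher (13.4%) and Erbb3 and Tgfa lower (12.2%). The median log2 fold change of the 8 tested genes at 12 h was 0.76 in KO and 0.06 in WT livers. Over all tested genes it was 0.00 and -0.01. Both medians of the 8 include Areg and Hbegf, tested only because of their high 12 h libraries, so they give no support for a family shift. From 3 to 12 h Areg and Hbegf rose and Erbb3 fell in both genotypes, 3 of the 10 in each, where 12.9% of all genes were called in KO and 12.8% in WT livers. Areg and Hbegf entered these numbers of calls only because their 12 h libraries passed the filter. From 1 to 3 h none was called, with 0% of all genes in KO and 6.42% in WT livers. At an unadjusted p under 0.05 there were 1 in KO (7.26% of all genes) and 2 in WT livers (19.6%), and DESeq2 called 0 in either.

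**Figure D4:**
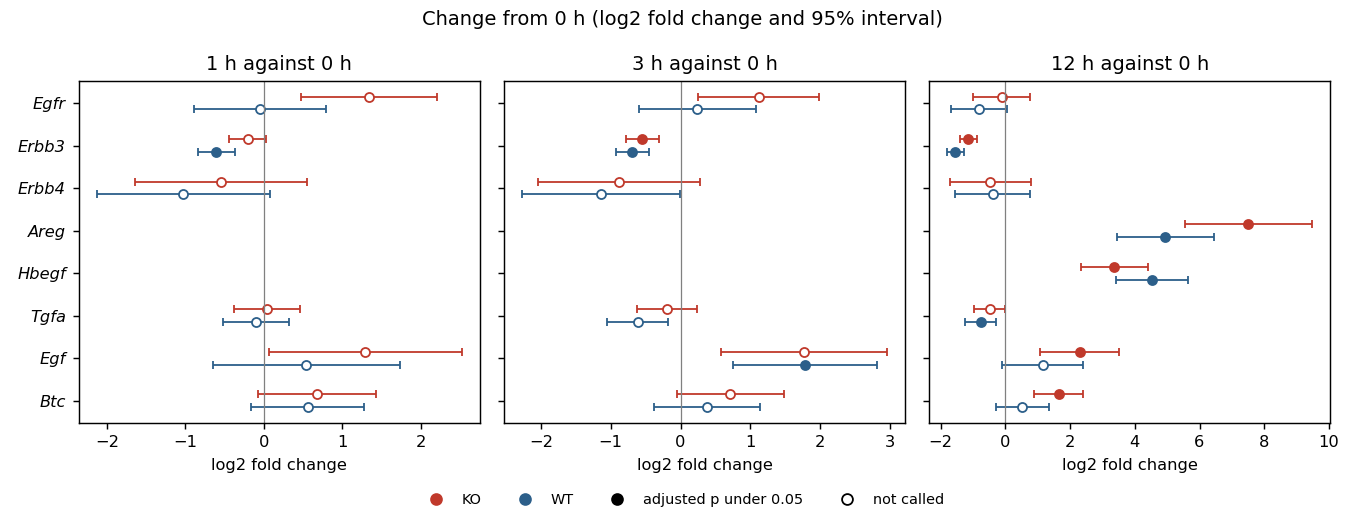
Log2 fold change from 0 h (x axes, a separate range in each panel) of the tested genes (y axis) at 1, 3 and 12 h, KO in red above WT in blue. Bars are the 95% interval by normal approximation, which is narrower than the test implies. Filled points passed an adjusted p of 0.05, and Areg and Hbegf are drawn at 12 h only because they were too low before. Erbb3 lies left of 0 throughout, and the Areg values of 7.51 in KO and 4.94 in WT rest on 0 and 2 reads at 0 h.

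Levels of different genes were compared per kb of exon, with exon lengths from GENCODE M21, which may differ from the authors' annotation. At 12 h the order in KO livers was Egfr (6.65 ± 3.35), Erbb3 (4.59 ± 0.44), Areg (3.22 ± 1.62), Tgfa (2.06 ± 0.436), Hbegf (0.855 ± 0.331) and Btc (0.838 ± 0.344). The same order held in WT livers, with Egfr at 19.7 ± 2.99, Erbb3 at 4.77 ± 0.832, Areg at 3.05 ± 1.10, Tgfa at 1.95 ± 0.319, Hbegf at 1.06 ± 0.49 and Btc at 0.469 ± 0.19 CPM per kb (SD, n = 3 each). In KO livers at 12 h the ranges of mean ± SD overlapped for the neighbours Egfr and Erbb3, Erbb3 and Areg, and Areg and Tgfa, and in WT livers for the pairs Erbb3 and Areg and Areg and Tgfa. Those of Hbegf and Btc overlapped in both genotypes. At 0 h the order in KO livers was Erbb3 (10.2 ± 0.289 CPM per kb), Egfr (7.28 ± 2.24) and Tgfa (2.91 ± 0.459), and in WT livers Egfr (34.7 ± 5.64), Erbb3 (13.9 ± 0.663) and Tgfa (3.38 ± 0.78). The other genes were at or below 0.322 CPM per kb in KO and 0.412 in WT livers.

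**Figure D5:**
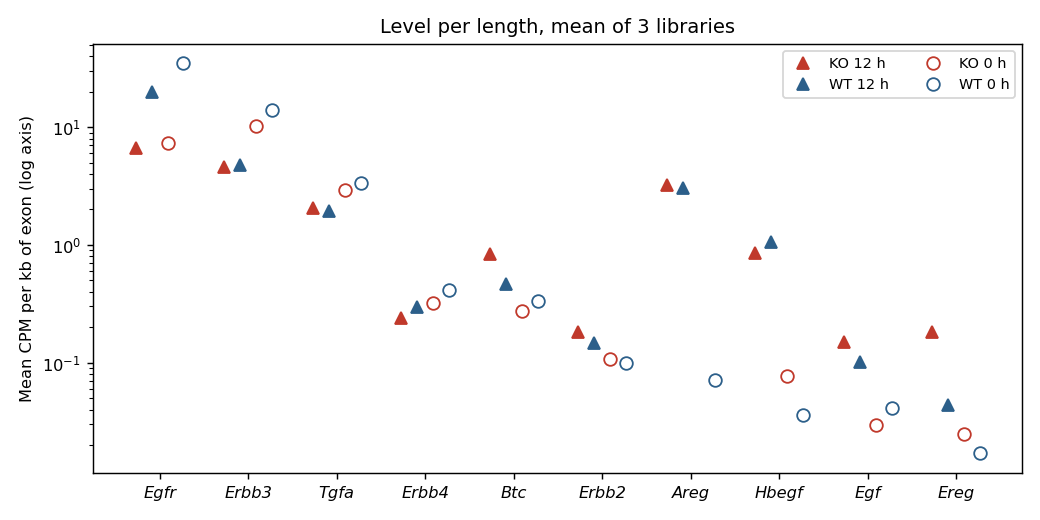
Mean level per kb of exon (y axis, log scale) of the 10 genes at 12 h (triangles) and 0 h (open circles), KO in red left of WT in blue. Areg at KO 0 h is listed at 0 and is not drawn. Areg and Hbegf reach 3.22 and 0.855 CPM per kb at 12 h in KO livers and 3.05 and 1.06 in WT livers.

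The other genes of the pathway were taken from 4 lists. None of their tested members was called between KO and WT at any time or in the average. Of all genes 0.0151%, 0.492%, 0.977% and 0.053% were called at 0, 1, 3 and 12 h and 0% in the average. The absence of calls among so few genes therefore does not show that the genotypes were alike. Of 5 further ERBB ligands 2 could be tested, and Nrg1, a ligand of ERBB3 and ERBB4, rose at 12 h by 2.15 in KO (edgeR adjusted p = 0.00164) and by 1.59 in WT livers (0.015), whereas Nrg4 was at 0.14 (0.814) in KO and -0.85 (0.149) in WT livers. Of 10 genes of ligand release 8 could be tested and 2 rose at 12 h in each genotype, the iRhoms that ADAM17 needs to mature, where 15.1% of all genes were called higher in KO and 13.4% in WT livers. Rhbdf1 rose by 1.51 in KO (0.00166) and 1.90 in WT (9.79e-05), and Rhbdf2 by 1.10 in KO (0.00306) and 1.09 in WT livers (0.00301). The protease Adam17 had -0.42 (0.145) in KO and -0.29 (0.326) in WT livers.

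All 25 adaptors and kinases were tested. At 12 h 3 were higher and 7 lower in KO livers (15.1% and 13.7% of all genes), and 2 were higher and 3 lower in WT livers (13.4% and 12.2%). Their median log2 fold change was 0.03 in KO and -0.03 in WT livers, beside 0.00 and -0.01 over all genes. Grb7, an adaptor that binds ERBB receptors, fell by 1.38 in KO (edgeR adjusted p = 2.02e-06) and 1.55 in WT livers (1.68e-07) at 12 h and was also called lower at 1 and 3 h in both. Its mean was 6.73 ± 1.59 CPM at KO 12 h and 17.5 ± 1.65 CPM at KO 0 h, and 7.17 ± 1.76 CPM at WT 12 h and 20.7 ± 2.38 CPM at WT 0 h (SD, n = 3 each). The docking protein Gab2 rose by 1.83 in KO (4.00e-06) and 1.52 in WT (4.41e-05), and the RAS exchange factor Sos2 by 0.86 in KO (1.70e-05) and 0.76 in WT livers (1.45e-04). Phospholipase Plcg1 fell by 0.49 in KO (0.0235) and 0.80 in WT (3.49e-04). Sos1 and Ptpn11 were named after their values were seen. Ptpn11 rose by 0.48 in KO livers (adjusted p = 0.00333, edgeR). Sos1 fell by 0.38 in KO (0.00633) and 0.36 in WT livers (0.00946).

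All 10 negative regulators were tested. Errfi1, which binds and inhibits the EGFR kinase, rose in KO livers by 0.45 at 1 h (edgeR adjusted p = 0.00909), 0.50 at 3 h (0.00387) and 0.41 at 12 h (0.00612), and in WT livers by 0.37 (0.038), 0.47 (0.00457) and 0.30 (0.0489). Without WT 0 h replicate 2 the WT calls at 1 h (0.126) and 12 h (0.119) were lost. Its mean at 12 h was 898 ± 24.2 CPM in KO and 812 ± 82.1 CPM in WT livers, and at 0 h 676 ± 35.5 CPM in KO and 660 ± 41.1 CPM in WT livers (SD, n = 3 each). At 12 h the phosphatase Ptpn1 rose by 0.80 in KO (8.89e-04) and 0.73 in WT livers (0.00186), and Socs4, which targets the receptor for degradation, fell by 0.60 in KO (0.00456) and 0.66 in WT livers (0.003). Lrig1 was at 0.46 (0.0948) in WT livers. The KO calls at 12 h came to 3 higher and 2 lower (15.1% and 13.7% of all genes), with Cblb (0.99, 3.93e-05) and Socs5 (-0.83, 0.0498) named after their values were seen, and the WT calls to 2 higher and 1 lower (13.4% and 12.2%). In WT livers 3 of the 10 were thus called, where 25.6% of all genes were.

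For each gene with at least 5 CPM in its highest group, the 2 most similar of 9003 genes were taken by Pearson's r of log2 CPM over the 24 libraries, which share genotype, time and depth. Egfr was most like Xpa (0.76) and Hycc1 (0.74). Erbb3 was most like Dsc2 (0.92) and Marf1 (0.92), and Erbb4 like Lmbrd2 (0.82) and Glo1 (0.78). Hbegf was most like Midn (0.96) and Ccnl1 (0.95), and Tgfa like Slc35b4 (0.83) and Dpp8 (0.83). Hbegf entered only through WT 12 h (mean 5.14 CPM) and had few reads before, so its r rests largely on the step at 12 h. Erbb4 entered only through WT 0 h (mean 5.09 CPM), where replicate 2, which stood apart, had 8.20 CPM. The values of r describe the libraries and carry no test.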

How the data were processed

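Per the labels, polyA RNA was isolated with TRIzol from livers of individual mice and sequenced on an AVITI instrument, so p-values measure the spread between mice. The authors deposited raw counts per gene and library, made with STAR on build mm39 per the submitters' processing notes. Neither the STAR version nor the annotation is given in the sources used here. Counts without regard to strand were used. The share on the gene's strand was 72.8% to 81.0% over all genes, but 99.2% for Egfr, 99.5% for Erbb3 and 99.8% for Tgfa. Ignoring strand can lose reads, as for Hbegf, with 138 counts without regard to strand and 164 on its own strand. Of 20.0 to 36.2 M reads per library 17.6% to 22.5% were counted on genes and 26.3% to 30.8% were ambiguous; the 4 lines that name no gene were left out.

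In R 4.3.3, edgeR 4.0.16 kept 13204 of 50657 genes with filterByExpr, scaled libraries by TMM and fitted 1 mean for each of 8 groups. The quasi-likelihood test was applied to 18 comparisons with Benjamini-Hochberg adjustment over all tested genes and a threshold of 0.05. Averages over times and differences of response came from the same fit. The test was also run on counts simulated from the spread of its own fit, which cannot show how it handles libraries that stand apart. Egfr was also tested by an exact permutation on log2(CPM + 1). Intervals of ratios are exact conditional ones. Those of log2 fold changes are normal approximations from the SE and are narrower than the quasi-likelihood test implies. Such an interval can leave out 0 where the unadjusted p is over 0.05.

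All 10 genes of the family are named. From the other lists up to 4 genes by smallest p at WT 12 h against 0 h are named, and genes alike by a fixed correlation rule. These genes and lists were chosen with earlier results of these data known. Alternatives were DESeq2 1.42.0, gene-strand counts, RLE scaling or none, a filter of 1 CPM in 3 libraries or none, a block for the replicate number, a fit to only the groups compared, other pseudocounts, and leaving out libraries.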

Additional observations from a re-analysis of the deposited data

How the results depend on the processing

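No called result changed direction under any alternative run, nor did a genotype difference of Egfr. Between KO and WT averaged over the 4 times the number of the 10 genes called was 0, and became 1, Egfr, with RLE scaling (adjusted p = 0.0497), no low-count filter (0.0123), DESeq2 (3.93e-08) and gene-strand counts (0.0405), and 0 to 1 when 1 library was left out. At 0 h it became 1, Egfr, with DESeq2 (4.68e-04) and with only the groups compared (0.00262). In KO livers at 1 h against 0 h it became 1 with DESeq2 (Egfr) and was 0 to 1 with 1 library left out (Erbb4 without KO 1 h replicate 1). At 3 h against 0 h leaving out 1 library gave 1 to 2 in KO livers (Egfr at 0.0456 without KO 3 h replicate 1) and 1 to 2 in WT livers. WT 3 h against 0 h gave 1 in place of 2 with only the groups compared and with gene-strand counts, where Egf failed the filter. WT 3 h against 1 h gave 0 to 1 (Tgfa without WT 1 h replicate 1). KO 12 h against 0 h gave 3 in place of 5 with only the groups compared, where Egf and Btc failed the filter. In the corresponding WT fit 3 were called, Egfr, Erbb3 and Tgfa, since Areg and Hbegf failed the filter there, and with gene-strand counts KO 12 h gave 4, without Egf. Tgfa was called in WT livers at 3 h with library size alone (adjusted p = 0.0234) and with no filter (0.00835). Library size alone moved the median of all genes at 12 h against 0 h to -0.26 in KO and -0.37 in WT livers. The permutation difference of Egfr ran from -1.69 to -1.47 with 1 library left out. Replicate numbers did not pair the samples, with correlations of same-number deviations of -0.17 to 0.18 (median 0.01, 5 of 84 over 0.1). With the replicate number as a block the number called was 5 at KO 12 h, 4 at WT 12 h and 0 between KO and WT averaged over times (Egfr adjusted p = 0.168). Leaving out WT 0 h replicate 2 or WT 3 h libraries was extended to Egfros and the pathway genes after the data had been seen. Depth limits Erbb2 and Ereg throughout, and Areg and Hbegf before 12 h.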
